A study of Rattus norvegicus with 6 samples.

Results

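Pleiotrophin and midkine are small secreted growth factors that bind heparan sulfate, and syndecans and glypicans are cell-surface proteins that carry heparan sulfate chains. These genes were followed across 3 cultured populations of olfactory ensheathing cells (OECs) of the rat, glia that wrap the axons of olfactory sensory neurons. The members were 9 genes fixed by name: the growth factor genes Ptn and Mdk, the syndecan genes Sdc1, Sdc2, Sdc3 and Sdc4, and the glypican genes Gpc1, Gpc3 and Gpc4. Every probe set whose only annotated symbol was one of these was taken, which gave 12 of the 8799 probe sets of the Affymetrix U34A array and 15 of the 31099 of the RAE2.0 array. The 9 genes stand among 12135 genes that had signal above the floor on at least 1 array type.

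All populations came from the olfactory nerve layer of both bulbs of Wistar rats and grew in one medium, DMEM plus 2 µM forskolin, 20 µg/ml bovine pituitary extract and 3% fetal serum. OEC Ep was a primary culture of 21-day-old rats harvested after 1 week, before 3 population doublings. OEC Lp came from rats of that age and was passaged beyond 50 doublings. Immunocytochemistry put the OEC purity of these primary cultures above 90%, per the labels. TEG3 was a cell line of a single selected clone, made by transfecting OECs of 60-day-old rats with a plasmid for the large T antigen of SV40, so donor age, clonal origin and the transgene cannot be told apart in it. Each population was hybridised to 1 U34A and 1 RAE2.0 array, 6 arrays in all, and RNA had been pooled from 3 cultures. Since nothing ties a pool to an array, the p-values below may measure technical spread alone.

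Heparan sulfate chains hold growth factors at the cell surface and present them to their receptors. Syndecans span the membrane and pass signals to the cytoskeleton, whereas glypicans are tethered by a lipid anchor. Pleiotrophin and midkine bind such chains as well as the phosphatase receptor encoded by Ptprz1, and both are known for promoting neurite growth. Agrin, perlecan and collagen XVIII carry the same kind of chain in basement membranes.

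A signal is a MAS5 intensity on a linear scale, and a value of a gene is the mean over its probe sets on the log2 scale. Signals under the 40th percentile of an array type, 129 on U34A and 168 on RAE2.0, were raised to that floor, so a fold against a floored value only bounds the difference from below and carries the words "at least". Of the 12 U34A and 15 RAE2.0 probe sets, 10 and 13 exceeded the floor on 1 array or more. Signal was thus measured on both types for 6 members, and on RAE2.0 alone for Mdk, Sdc3 and Gpc4. The array types have different probes, so populations are compared within a type. Members were also sorted by the population with the highest signal, a count that was not made over all genes. On RAE2.0, the highest signal was that of OEC Ep for 5 of 9 members, of OEC Lp for 4 and of TEG3 for 0. The last count depends on Sdc1, with 1968 in OEC Lp and 1795 in TEG3. Its brightest RAE2.0 probe set was highest in TEG3 (4782, and 3508 in OEC Lp). On U34A, each population was the highest for 2 of 6 members.

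**Figure D1:**
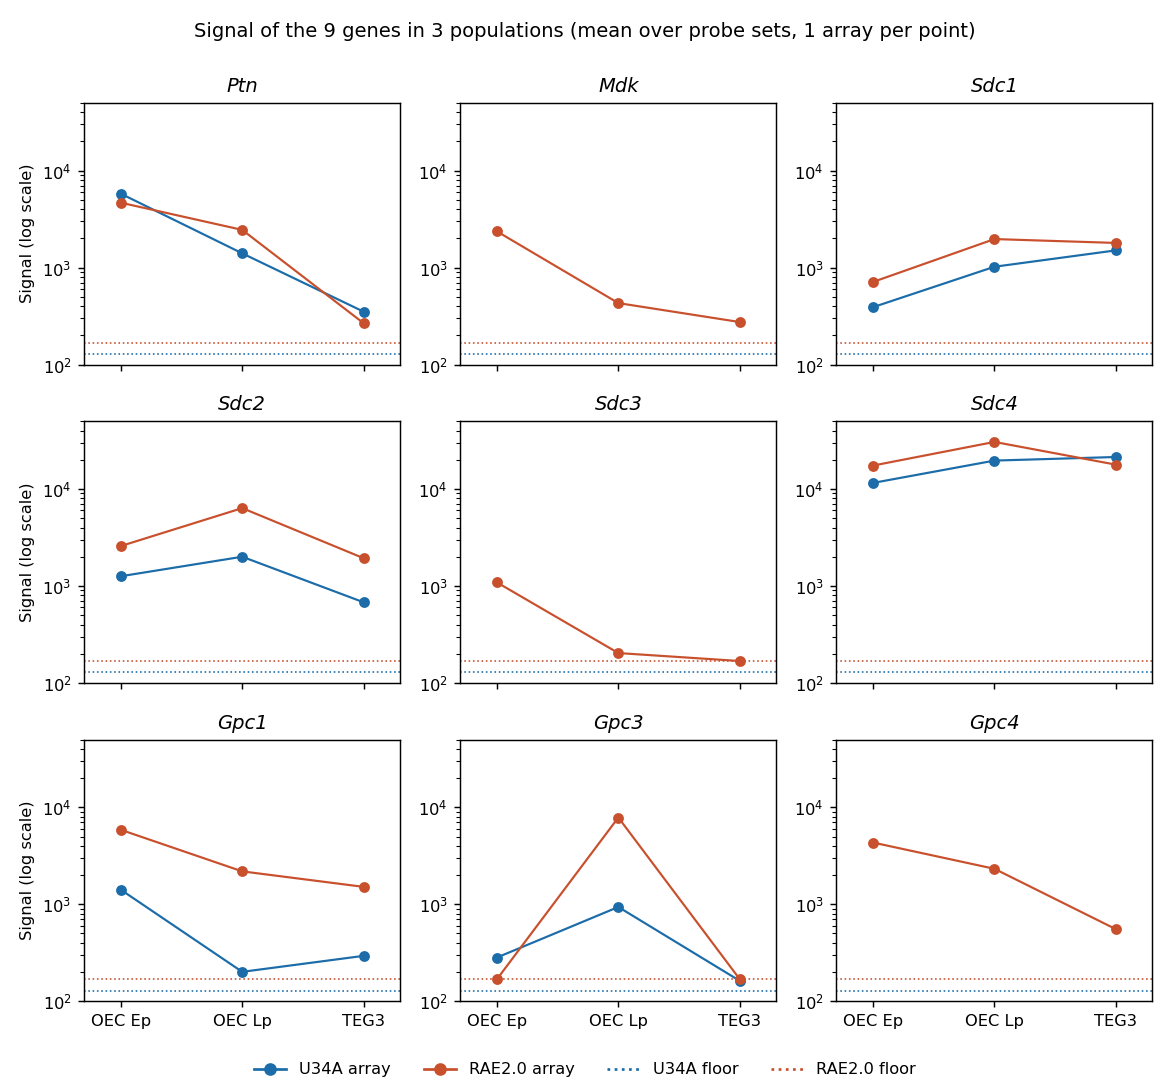
Signal (log scale) of each of the 9 genes for each population (OEC Ep, OEC Lp, TEG3), with 1 point per array, U34A in blue and RAE2.0 in red, and dotted lines for the floors of 129 and 168. Ptn runs down from OEC Ep to TEG3 on both types, and Gpc3 stands out in OEC Lp.

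Among the ligands, Ptn, which encodes pleiotrophin, gave U34A signals of 5790 for OEC Ep, 1402 for OEC Lp and 350 for TEG3. Its RAE2.0 signals were 4673, 2447 and 266 in the same order. OEC Ep was the highest and TEG3 the lowest population on either type, and all values lay above the floor. Ptn fell 17.0-fold in TEG3 against OEC Ep (log2 fold -4.09 ± 0.40 SE, limma adjusted p = 0.00988), with log2 ratios of -4.05 on U34A and -4.13 on RAE2.0. On these types 0.699% and 0.728% of genes had a lower ratio. OEC Lp lay between the other populations: Ptn was 2.81-fold lower there than in OEC Ep (adjusted p = 0.114) and 6.07-fold lower in TEG3 than in OEC Lp (adjusted p = 0.0548), and neither difference passed. The call for TEG3 against OEC Ep was lost without a floor (adjusted p = 0.0508), with dim probe sets kept (0.159) and without the replicate block (0.127). It was also lost without any 1 array: without the OEC Ep array of U34A (0.237) or RAE2.0 (0.248), either OEC Lp array (0.0789), or the TEG3 array of U34A (0.130) or RAE2.0 (0.168).

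Mdk, which encodes midkine, the closest relative of pleiotrophin, gave RAE2.0 signals of 2366 for OEC Ep, 430 for OEC Lp and 274 for TEG3. It was 5.50-fold lower in OEC Lp and 8.63-fold lower in TEG3 than in OEC Ep, with 1 array per population and no test. The share of RAE2.0 genes with a lower ratio was 2.83% and 1.63%. Both ligand genes therefore had their highest signal in the short-term culture on every array type that measured them. They differed in OEC Lp, where Ptn was 1.91-fold and Mdk 5.50-fold below OEC Ep on RAE2.0, a difference between the genes that was not tested.

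Markers of microglia and of OECs also had their highest summed signal in OEC Ep, which was not so for every marker list. Fibroblast and meningeal markers summed highest in OEC Lp on both types (147241 on RAE2.0 and 93509 on U34A, against 135272 and 84300 in OEC Ep). The summed RAE2.0 signal of 18 microglia and macrophage markers was 72214 for OEC Ep, 5939 for OEC Lp and 3957 for TEG3, and that of 10 such markers on U34A was 28472, 1752 and 1820. Of the 18, 14 were at the floor in OEC Lp and 14 in TEG3, including Aif1, a calcium-binding protein of microglia. The 21 OEC and Schwann cell markers on RAE2.0 summed to 170211, 9134 and 8385, and the 17 on U34A to 49148, 8036 and 7957. Not every marker fell: the RAE2.0 ratio of OEC Lp to OEC Ep was down at least 2-fold for 16 of the 21 and up at least 2-fold for 3. For the ratio of TEG3 to OEC Ep these counts were 15 and 2. Of the 17 on both types, limma called 11 as fallen in the first comparison and 12 in the second, and 0 as risen in either. Sox10, the transcription factor that defines these glia, gave 2904 for OEC Ep and 201 for TEG3 on U34A and 5743 and 233 on RAE2.0, and was at the floor in OEC Lp on either type. S100b, another marker of these glia, was at the floor in OEC Lp and TEG3 on RAE2.0. OEC Lp had 11 and TEG3 13 of the 21 markers at the floor there, against 1 for OEC Ep, and on U34A OEC Lp had 3 and TEG3 4 of the 17, against 0. The part of these shifts in the members' values was not tested, and in bulk RNA fewer cells of a type and less RNA per cell cannot be told apart.

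Syndecans did not share one pattern. Sdc1, the syndecan of epithelia and wounded tissue, gave U34A signals of 390 for OEC Ep, 1020 for OEC Lp and 1505 for TEG3. Its RAE2.0 signals were 710, 1968 and 1795. OEC Ep was the lowest on each type, while the order of OEC Lp and TEG3 turned between types. The log2 fold was 1.43 ± 0.33 in OEC Lp against OEC Ep (adjusted p = 0.0746) and 1.64 ± 0.33 in TEG3 against OEC Ep (adjusted p = 0.0565), neither past the threshold. The brightest Sdc1 probe set alone had 1116, 4174 and 7217 on U34A and 1319, 3508 and 4782 on RAE2.0, and with it TEG3 against OEC Ep passed (log2 fold 2.28, adjusted p = 0.0266). It passed as well when only probe sets above the floor on all arrays were tested (adjusted p = 0.0453). It did not without a floor (0.132), with the floor at the 25th percentile (0.0960), with dim probe sets kept (0.213) or without the replicate block (0.915). The dimmer probe set had 136, 249 and 314 on U34A and 382, 1104 and 674 on RAE2.0.

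Sdc2, the syndecan of mesenchymal and neural cells, gave U34A signals of 1258 for OEC Ep, 2001 for OEC Lp and 677 for TEG3. On RAE2.0 it had 2577, 6349 and 1929. OEC Lp was the highest and TEG3 the lowest on each type, and the 3 RAE2.0 probe sets had the same order as each other. In TEG3 against OEC Lp the log2 fold was -1.64 ± 0.32, a 3.12-fold difference that did not pass (adjusted p = 0.0823). OEC Lp was 1.98-fold above OEC Ep (adjusted p = 0.174).

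Sdc4, the broadly expressed syndecan of focal adhesions, had U34A signals of 11546, 19633 and 21384. On RAE2.0 it had 17436, 30582 and 17814. OEC Lp was above OEC Ep on each type by a similar step, 0.77 and 0.81 on the log2 scale, a 1.73-fold difference that did not pass (adjusted p = 0.314). TEG3 was above OEC Ep by 0.89 on U34A and by 0.03 on RAE2.0, so the types did not give one size for that step. Its range over the populations was 1.85-fold on U34A and 1.75-fold on RAE2.0, narrower than that of each of the other members.

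Sdc3, the syndecan of neural tissue also called N-syndecan and a known receptor for pleiotrophin, was measured on RAE2.0 only. Its signal was 1089 for OEC Ep, 203 for OEC Lp and at the floor for TEG3, which makes it at least 5.37-fold lower in OEC Lp and at least 6.48-fold lower in TEG3, with no test. The brightest of its probe sets had 2395, 245 and 76 before the floor was applied, and the next 495, 10 and 16. Another RAE2.0 probe set had 144, 105 and 24, all under the floor, and was not used. The U34A probe set had 100, 19 and 32, all under the floor of 129. With the floor at the 25th percentile Sdc3 entered the test on both types, with a log2 fold of -1.52 in OEC Lp (adjusted p = 0.237) and -1.86 in TEG3 (adjusted p = 0.154) against OEC Ep. With dim probe sets kept it entered as well, and these log2 folds were smaller, -0.81 (adjusted p = 0.663) and -0.90 (adjusted p = 0.635).

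**Figure D2:**
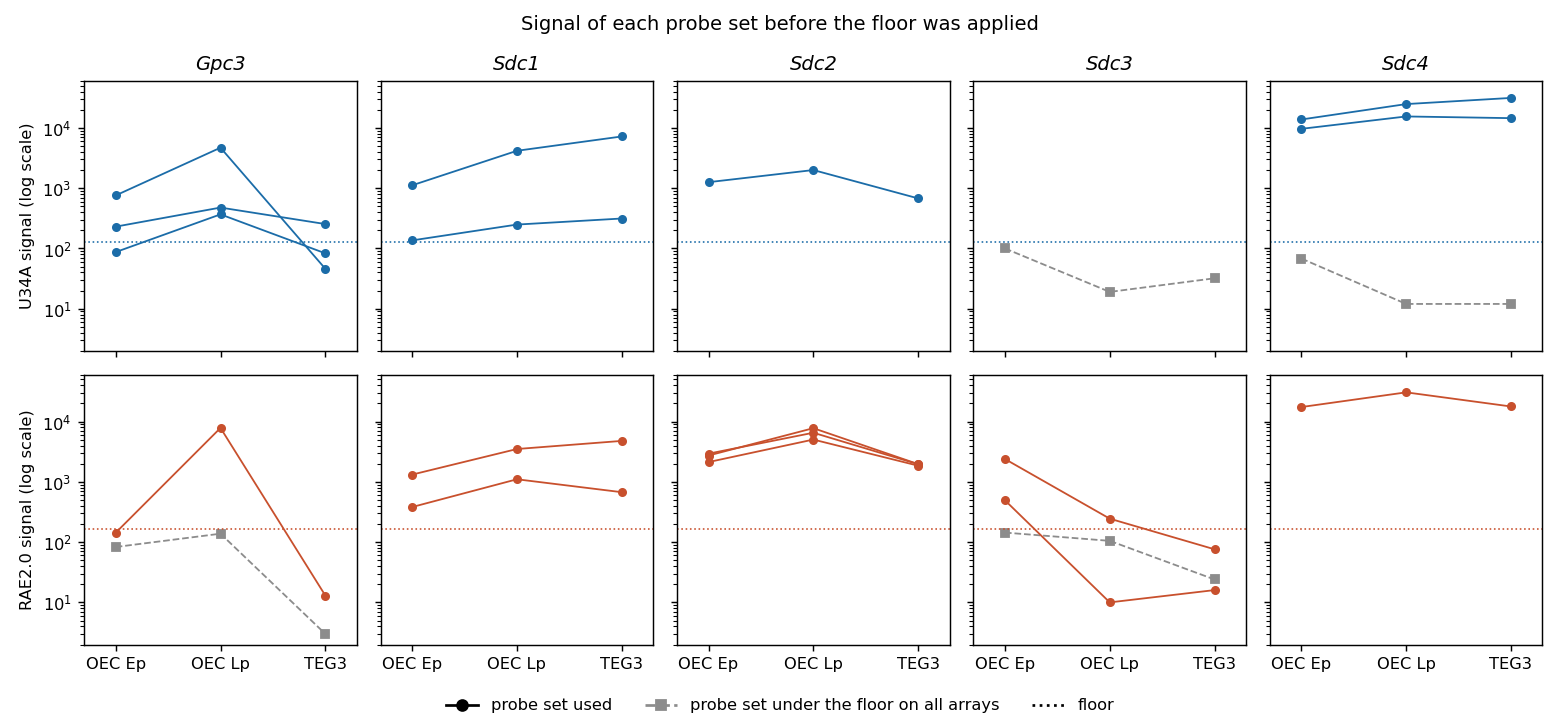
Signal (log scale) of each probe set of 5 genes before the floor was applied, U34A above and RAE2.0 below, with 1 line per probe set over OEC Ep, OEC Lp and TEG3. Grey dashed lines are probe sets under the floor (dotted) on all 3 arrays of a type. The Gpc3 probe sets differ in signal but each is highest in OEC Lp.

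The widest range of a member on RAE2.0 was that of Gpc3, at least 46.8-fold. On U34A, Ptn ranged over 16.5-fold and the mean of Gpc3 over at least 5.80-fold. That bound does not rank Gpc3 below Ptn, since its brightest U34A probe set ranged over at least 36.4-fold. The sequences upstream of Gpc3 and Gpc4 are shown because these genes lie on the same chromosome, X, with 3 annotated genes between them, and yet their signals ran in opposite directions from OEC Ep to OEC Lp. That of Ptn is shown as the member with the lowest adjusted p. Upstream sequence in the RefSeq table (build GRCr8) was matched for 6 of 9 members, and Mdk, Sdc2 and Gpc1 had no entry. Each line gives the 250 bases before the annotated start on the gene's strand, 5′ to 3′, with capitals for GC boxes (GGGCGG on either strand). The windows are chr4:66342333-66342582 (minus strand) for Ptn, chrX:137157599-137157848 (minus strand) for Gpc3 and chrX:136676058-136676307 (minus strand) for Gpc4.
Ptn: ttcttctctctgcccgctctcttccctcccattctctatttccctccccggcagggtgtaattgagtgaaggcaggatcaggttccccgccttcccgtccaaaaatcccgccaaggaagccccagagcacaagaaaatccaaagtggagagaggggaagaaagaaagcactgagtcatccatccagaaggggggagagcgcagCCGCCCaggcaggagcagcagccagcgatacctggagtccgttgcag
Gpc3: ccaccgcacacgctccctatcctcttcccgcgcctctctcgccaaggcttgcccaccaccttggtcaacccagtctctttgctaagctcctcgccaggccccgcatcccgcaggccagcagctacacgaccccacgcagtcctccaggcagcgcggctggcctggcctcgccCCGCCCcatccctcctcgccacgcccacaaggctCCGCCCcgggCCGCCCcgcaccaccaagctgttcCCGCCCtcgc
Gpc4: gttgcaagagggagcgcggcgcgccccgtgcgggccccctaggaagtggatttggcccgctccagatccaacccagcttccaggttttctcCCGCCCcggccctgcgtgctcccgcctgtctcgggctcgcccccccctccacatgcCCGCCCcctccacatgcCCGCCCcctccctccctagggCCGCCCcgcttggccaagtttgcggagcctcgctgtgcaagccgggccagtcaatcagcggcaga
Gpc3 and Gpc4 each held 4 GC boxes and Ptn 1. At least 1 GC box was found in 30.5% of 33469 upstream windows of the same length. The TATA box (TATAAA, 12.9% of windows) and the E-box CACGTG (5.59%), searched on both strands, had 0 matches in the 3 windows. Base composition was 71.6% G or C for Gpc3, 71.6% for Gpc4 and 57.6% for Ptn. The glypican genes thus had the same number of GC boxes and the same base composition in this window beside different signals.

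Gpc3, a glypican of embryonic mesoderm that regulates hedgehog and insulin-like growth factor signals, gave RAE2.0 signals of 143 for OEC Ep, 7855 for OEC Lp and 13 for TEG3, where the first and the last are under the floor. OEC Lp was at least 46.8-fold above each of the others there, and 99.9% of RAE2.0 genes had a lower ratio of OEC Lp to OEC Ep. On U34A the brightest of 3 probe sets had 758, 4700 and 46, and the others 230, 477 and 254, and 87, 368 and 83. OEC Lp was the highest population on each of these probe sets. The mean over probe sets put OEC Lp at least 3.32-fold above OEC Ep and at least 5.80-fold above TEG3 on U34A. Fitted over both types, with floored values taken as they stand, the log2 fold was 3.64 ± 0.90 in OEC Lp against OEC Ep (adjusted p = 0.0858) and -4.04 ± 0.90 in TEG3 against OEC Lp (adjusted p = 0.114), neither past the threshold. With the brightest probe set of each type both passed (4.09, adjusted p = 0.0296, and -5.37, adjusted p = 0.0361). With the floor at the 25th percentile, which lets in a second RAE2.0 probe set with 138 in OEC Lp, the difference of OEC Lp from OEC Ep passed at a log2 fold of 2.59 (adjusted p = 0.0388). It did not pass without a floor (3.84, adjusted p = 0.296), with dim probe sets kept (2.25, 0.226) or without the replicate block (0.445), and without the OEC Lp array of U34A or RAE2.0 the log2 fold was 5.35 or 1.93. The array types thus gave very different sizes for this gene.

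Gpc1, the glypican of neurons and glia that modulates fibroblast growth factor signals, gave U34A signals of 1416 for OEC Ep, 201 for OEC Lp and 294 for TEG3. On RAE2.0 it had 5873, 2186 and 1512. OEC Ep was the highest on each type. Gpc1 fell 4.35-fold in OEC Lp against OEC Ep (log2 fold -2.12 ± 0.42, adjusted p = 0.0474). In TEG3 against OEC Ep it was 4.33-fold lower, which just missed the threshold (log2 fold -2.11 ± 0.42, adjusted p = 0.0565), and passed when only probe sets above the floor on all arrays were tested (adjusted p = 0.0392), but not without a floor (0.129) or with dim probe sets kept (0.281). TEG3 and OEC Lp differed by 0.01 ± 0.42 on the log2 scale (adjusted p = 1). The call in OEC Lp was lost without a floor (adjusted p = 0.119), with the floor at the 25th percentile (0.0715), with quantile normalization (0.0509), with dim probe sets kept (0.295), without the replicate block (adjusted p of 1) and with the 4 arrays compared alone (0.153). It was also lost without the OEC Ep array of U34A (0.375) or RAE2.0 (0.316), the OEC Lp array of U34A (0.227) or RAE2.0 (0.157), or either TEG3 array (0.153), and over these fits the log2 fold ran from -2.74 to -1.50, both without an OEC Lp array (RAE2.0 and U34A).

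Gpc4, a glypican of progenitor cells and astrocytes, gave RAE2.0 signals of 4337 for OEC Ep, 2323 for OEC Lp and 553 for TEG3. It was 1.87-fold lower in OEC Lp and 7.84-fold lower in TEG3 than in OEC Ep, with 1 array per population and no test, and 1.97% of RAE2.0 genes had a lower ratio of TEG3 to OEC Ep. Its order of populations was that of Ptn, whose RAE2.0 ratios were 1.91-fold and 17.6-fold lower. Where Gpc3 was highest, in OEC Lp, Gpc4 held an intermediate signal.

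The first comparison, OEC Lp with OEC Ep, asked what goes with more than 50 doublings in culture. Of 6 members on both types, limma called 1, Gpc1, and called 6.14% of all 3129 genes. All 6 had the same sign on both types, a count not made over all genes. The median log2 fold was 0.89 for the members and 0.11 for all genes tested. An unadjusted limma p under 0.05 was reached by 5 members and by 615 of all 3129 genes. On RAE2.0, 3 of 9 members were at least 2-fold higher, namely Sdc1, Sdc2 and Gpc3, beside 10.4% of genes. Another 3, Mdk, Sdc3 and Gpc1, were at least 2-fold lower, also beside 10.4% of genes. The median RAE2.0 log2 ratio was -0.90 for the members and 0.10 for all genes.

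The second comparison, TEG3 with OEC Ep, asked how the immortalised clone differs from the short-term culture. Of the 6 members, 1 was called, Ptn, beside 4.51% of all genes. The types had the same sign for 5, a count not made over all genes. The median log2 fold was -0.53 for the members and 0.04 for all genes. On RAE2.0, 5 of 9 members were at least 2-fold lower (Ptn, Mdk, Sdc3, Gpc1 and Gpc4), against 10.6% of genes, and 1, Sdc1, was at least 2-fold higher, against 12.1%. This comparison and the previous one share the OEC Ep arrays, so their directions are not independent of each other.

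The third comparison set TEG3 beside OEC Lp, the other long-term population. By limma 0 of 6 members were called, beside 1.31% of all genes. An unadjusted p under 0.05, which is no call, was found for 3 (Ptn, Sdc2 and Gpc3). For 3 of 6 the types had the same sign. No share over all genes stands beside either count of 3, so neither count tells these genes from the rest. The median log2 fold was -0.98 for the members and -0.01 for all genes. On RAE2.0, 4 of 9 members were at least 2-fold lower in TEG3 (Ptn, Sdc2, Gpc3 and Gpc4), against 8.66% of genes, and 0 were at least 2-fold higher, against 9.63%.

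**Figure D3:**
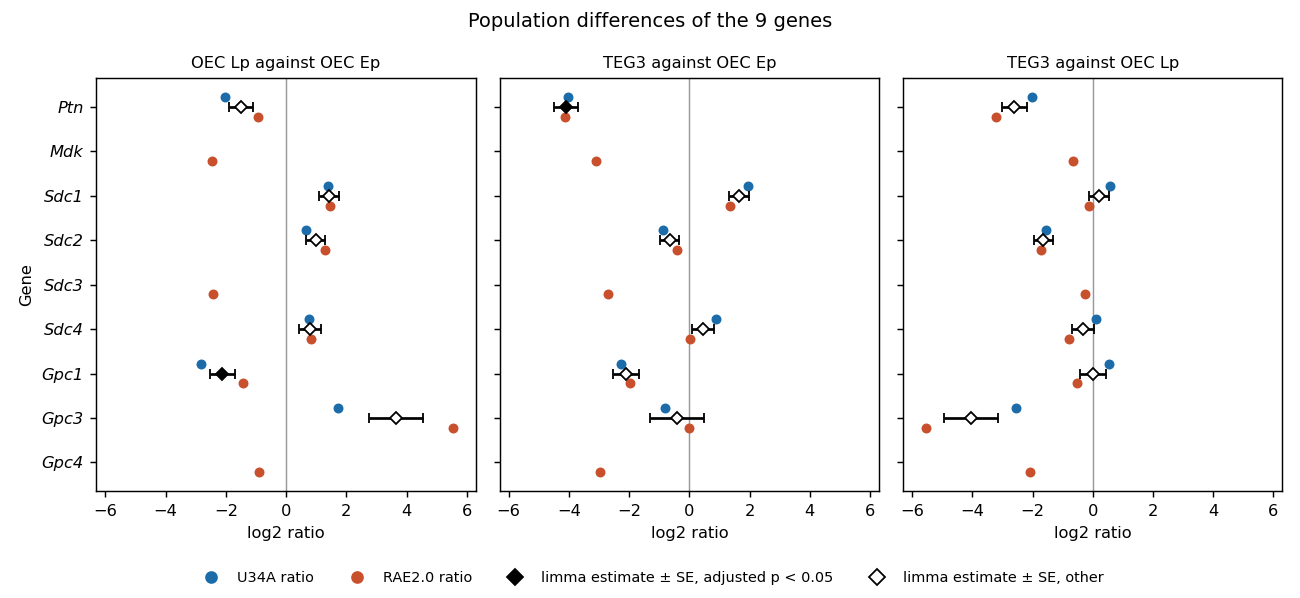
Log2 ratio of each gene in the 3 comparisons. Blue and red points are the ratios of single U34A and RAE2.0 arrays, and diamonds with bars are the limma estimate over both types with its SE, filled where the adjusted p is under 0.05. Filled diamonds stand at Gpc1 in OEC Lp against OEC Ep and at Ptn in TEG3 against OEC Ep.

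The genes with the most similar profile over the 6 arrays were found by the Euclidean distance of log2 signals, each type centred on its mean, among 736 genes that varied at least 2-fold on both types. For Ptn they were Ccnd2, a cyclin of the G1 phase, at a distance of 0.96, Jag1, a Notch ligand, at 1.03, and Cd48, a surface protein of leukocytes, at 1.12. From OEC Ep to OEC Lp on RAE2.0, however, Ccnd2 rose (2940 and 3880) where Ptn fell (4673 and 2447). For Gpc3 the closest genes were Omd, a proteoglycan of the matrix, at 1.13, the integrin gene Itgb4 at 1.14 and the tetraspanin gene Tspan8 at 1.24. On RAE2.0 Gpc3 and Omd were both at the floor in OEC Ep and TEG3, and Tspan8 was at the floor in OEC Ep. The distances of Omd and Tspan8 are therefore set in part by the floor. Sdc1 was closest to Alkbh2, a DNA repair enzyme (0.31), Ccne1, cyclin E1 (0.36), and the isocitrate dehydrogenase gene Idh2 (0.39). Sdc2 was closest to the transcription factor gene Klf9 (0.36), Wdfy1 (0.39) and the adhesion gene Ninj1 (0.41), and Gpc1 to Serinc5 (0.41), Frmd6 (0.46) and the kinesin gene Kifc3 (0.48). Distances for Ptn and Gpc3 were larger than for the other 3, and Sdc4 varied too little to enter.

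Receptors and binding partners of pleiotrophin and midkine form the first of the lists of related genes. Of 14 measured on both types, 4 fell and 0 rose between OEC Ep and OEC Lp (median log2 fold -0.59), beside 6.14% called and a median of 0.11 over all genes. Ptprz1, the phosphatase receptor for both ligands, had U34A signals of 419 in OEC Ep and the floor in OEC Lp and TEG3, and RAE2.0 signals of 1510, the floor and 247. It fell in OEC Lp (log2 fold -2.43 ± 0.43, adjusted p = 0.0331), by at least 3.25-fold on U34A and at least 8.99-fold on RAE2.0. In TEG3 it was at least 3.25-fold and at least 6.12-fold lower than in OEC Ep (adjusted p = 0.0562). Fyn, a kinase that pleiotrophin signalling engages, fell 4.76-fold in OEC Lp (adjusted p = 0.0369) and was 1.90-fold lower in TEG3 (adjusted p = 0.273). Ncan, which encodes the matrix ligand neurocan, fell in OEC Lp by at least 6.99-fold on U34A and at least 5.65-fold on RAE2.0 (adjusted p = 0.0114). The matrix gene Tnc, tenascin-C, fell there by at least 16.2-fold on U34A and by 17.0-fold on RAE2.0 (adjusted p = 0.00849). Both also fell in TEG3 against OEC Ep, Ncan by at least 5.27-fold and at least 5.65-fold (adjusted p = 0.0162) and Tnc by at least 11.8-fold and by 25.9-fold (adjusted p = 0.00988). They were the 2 of 14 that fell in TEG3 (median -0.80, beside 4.51% called and a median of 0.04 over all genes). Between TEG3 and OEC Lp 0 of 14 were called (median 0.14, beside 1.31% and -0.01 over all genes), and these shares and medians of all genes apply to the lists below as well.

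Other heparan sulfate proteoglycans had 6 genes on both types. In TEG3 against OEC Ep 1 fell, Agrn, which encodes agrin (9.36-fold, log2 fold -3.23 ± 0.56, adjusted p = 0.0408). Its signals were 4116, 1249 and 242 on U34A and 7298, 1646 and 1419 on RAE2.0, so the step from OEC Lp to TEG3 was 5.17-fold on one type and 1.16-fold on the other. The list had 0 of 6 called in OEC Lp against OEC Ep (median -0.03) and 0 in TEG3 against OEC Lp (median -0.86). Basement membrane genes on RAE2.0 alone had the same order of populations: Hspg2, perlecan, had 2232, 777 and 506, and Col18a1 had 1302, 611 and 256. On RAE2.0 the list had 9 genes, of which OEC Lp had 4 lower and 1 higher than OEC Ep by 2-fold or more (10.4% and 10.4% of all genes), and TEG3 had 4 lower (10.6%).

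RAE2.0 measured 27 heparan sulfate synthesis genes, and 4 of them were higher and 6 lower by 2-fold or more in OEC Lp than in OEC Ep (median log2 ratio -0.01, and 0.10 for all genes, of which 10.4% were higher and 10.4% lower). In TEG3 1 was higher and 5 lower (median -0.10, and 0.11 for all genes, of which 12.1% were higher and 10.6% lower). Of the 5 on both types 0 were called in any comparison (medians 0.07, -0.03 and 0.12 in the order of comparisons above). Hs3st1, a sulfotransferase that makes the antithrombin-binding site, had 180 in OEC Ep, 961 in OEC Lp and the floor in TEG3. Pxylp1, a phosphatase acting on the linker xylose, had 3580, 892 and 1086. Among 9 editing and breakdown genes on RAE2.0, Sulf2, an extracellular sulfatase that trims chains, had 2105, 6841 and 677, the order of populations of Sdc2. It was the 1 gene of that list that was higher by 2-fold or more in OEC Lp, with 0 lower.

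Heparin-binding growth factors and their receptors went both ways. Of 20 on both types, 2 rose and 1 fell in OEC Lp against OEC Ep (median 0.29). Bmp4 rose (adjusted p = 0.0474), by at least 4.02-fold on U34A and by 20.9-fold on RAE2.0. Fgf1 rose (adjusted p = 0.0152), by 2.38 on the log2 scale on U34A and at least 5.25-fold on RAE2.0, and Hbegf fell 3.84-fold (adjusted p = 0.0373). In TEG3 the fibroblast growth factor receptor gene Fgfr1 fell 6.23-fold against OEC Ep (adjusted p = 0.0249) and 19.0-fold against OEC Lp (adjusted p = 0.0213). Its signals were 1841, 4086 and 202 on U34A and 1861, 7771 and 437 on RAE2.0. Fgf1 also fell in TEG3 against OEC Lp (adjusted p = 0.0361), by 4.74-fold on U34A and at least 6.15-fold on RAE2.0. The list thus had 1 of 20 called in TEG3 against OEC Ep (median -0.10) and 2 in TEG3 against OEC Lp (median 0.00). Cxcl12, a chemokine held by heparan sulfate, had RAE2.0 signals of 1033, 220 and 5251, the highest in TEG3. Syndecan and glypican partners and sheddases had 0 of 11 called in each comparison, with medians of 0.05, -0.46 and -0.20.

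**Figure D4:**
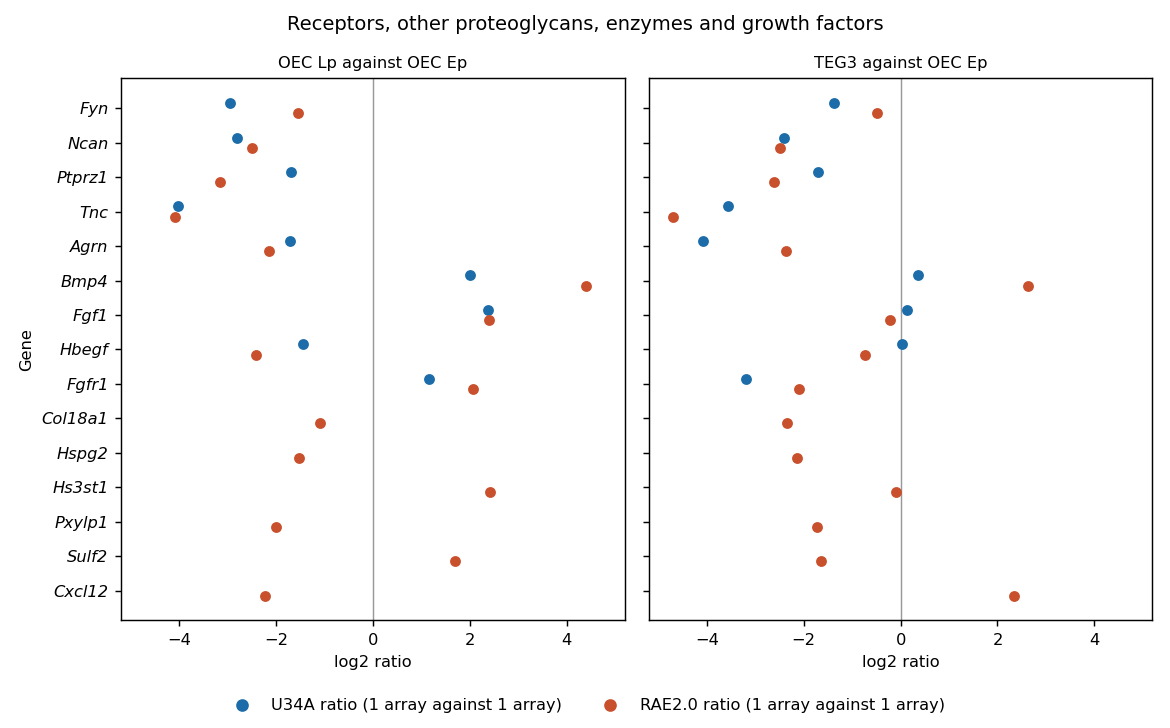
Log2 ratios of 15 related genes in OEC Lp (left) and TEG3 (right) against OEC Ep, with 1 point per array type, U34A in blue and RAE2.0 in red. Ptprz1, Ncan, Tnc and Agrn lie left of 0 in both panels on both types, and Fgfr1 lies right of 0 in OEC Lp and left of 0 in TEG3.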

How the data were processed

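Total RNA of 3 populations, pooled over cultures, was measured on 6 Affymetrix arrays. The authors deposited linear MAS5 signal intensities, per the submitters' processing notes. The design text names a filter on probe sets whose setting is not given in the sources used here. Each array was scaled to a common mean after trimming 2% at each end (1000 to 1002 on all arrays as deposited). Controls (59 and 57 probe sets) were dropped, and a probe set had to exceed the floor on 1 array of its type. The platform annotation gave 1 symbol to 7006 and 20826 probe sets, which were used, and several to 308 and 436 or none to 1426 and 9780, which were not. This left 3722 and 11542 genes, 3129 on both types. On each array 59.1 to 61.8% of probe sets exceeded the floor, and 2 arrays per population limit the precision.

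For genes on both types, limma 3.58.1 (R 4.3.3) was run on log2 values, with terms for population and array type (the replicate block, since the types hold different probes; 2 residual and 3.64 prior degrees of freedom), and p-values were adjusted by Benjamini-Hochberg over all 3129 genes. In simulated data modelled on OEC Lp and OEC Ep, over these 3129 genes, 2.1% of 2-fold, 54.4% of 4-fold and 88.6% of 8-fold changes were recovered. The simulation drew normal noise with the spread that limma had fitted and applied no floor. Recovery among floored genes, or where the types differ in size, was therefore not tested. The members, lists and naming rule were chosen with earlier results of these data known: members always, list genes called in any comparison with 1 sign on both types, up to 4 per list on 1 type with at least a 4-fold range, and the 3 closest profiles. Lists of partners, proteoglycans, chain enzymes, growth factors and cell markers came from textbook knowledge. Alternatives were 2 floors, 2 filters, 2 scalings, the brightest probe set, no replicate block, fewer arrays and leaving out each array.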

Additional observations from a re-analysis of the deposited data

How the results depend on the processing

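Of 267 alternative values of the 6 members on both types, 231 kept direction and side of the threshold, 22 kept direction but no longer passed, 8 passed in addition and 6 turned in sign. The calls of Gpc1 and Ptn, and those gained by Gpc3, Sdc1, Gpc1 and Ptn, therefore depend on the setting. Ptn passed for TEG3 against OEC Lp with the brightest probe set (adjusted p = 0.0489) and with probe sets above the floor on all arrays (0.0237), and in no other setting tried.

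Over all genes, limma called 192, 141 and 41 genes when OEC Lp was set beside OEC Ep, TEG3 beside OEC Ep and TEG3 beside OEC Lp, the order of all counts here. Without a floor the counts were 68, 11 and 0 (439 at an unadjusted p under 0.05 in the last), with dim probe sets kept 1, 1 and 0 (469 unadjusted), and with probe sets above the floor on all arrays 77, 86 and 40. The floor at the 25th percentile left 4 in the last comparison. With no replicate block they were 0, 0 and 0 (193, 172 and 109 unadjusted), and with the 4 arrays compared alone 38, 0 and 0 (622 and 376 unadjusted in the last 2). Members called were 1, 1 and 0. They were 0, 0 and 0 without a floor (4, 3 and 3 unadjusted), with dim probe sets kept (5, 3 and 3), with no replicate block (1, 1 and 2) and with the 4 arrays alone (5, 3 and 3). They were 0 in the first comparison with quantile normalization (6 unadjusted), 1, 3 and 1 with probe sets above the floor on all arrays, and 2, 2 and 2 with the brightest probe set. Leaving out 1 array gave 0 to 38, 0 to 0 and 0 to 0 genes and 0 to 0 members in each comparison (2 to 5, 2 to 3 and 2 to 3 unadjusted), where a lone array was assumed to vary like the other populations. Every call in the TEG3 comparisons, list genes included, was therefore lost without any 1 array. Every call in OEC Lp against OEC Ep, list genes included, was likewise lost without any 1 of the 4 arrays compared. Only without a TEG3 array did some calls remain in that comparison, and no member was among them.

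The values that turned in sign were those of Gpc3 in TEG3 against OEC Ep without the OEC Ep array of U34A (0.75) or the TEG3 array of RAE2.0 (0.15), and in TEG3 against OEC Lp those of Sdc1 without the TEG3 array of U34A (-0.11), Sdc4 without the TEG3 array of RAE2.0 (0.11) and Gpc1 without the U34A array of OEC Lp (-0.61) or TEG3 (-0.18). Over the left-out arrays these values ran from -1.56 to 0.75 for Gpc3, -0.11 to 0.54 for Sdc1, -0.77 to 0.11 for Sdc4 and -0.61 to 0.63 for Gpc1. None of them had passed in the reported fit. The cause of each change was not tested. Of 309 alternative ratios on single types, 25 moved by more than the typical SE of such a ratio.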

Other observations

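Other cell marker lists differed between populations as well. Fibroblast and meningeal markers summed to 135272 for OEC Ep, 147241 for OEC Lp and 41685 for TEG3 over 20 genes on RAE2.0, and to 84300, 93509 and 43985 over 15 on U34A. Of 13 on both types 3 rose and 2 fell in OEC Lp against OEC Ep, and 0 rose and 2 fell in TEG3 against OEC Ep. The collagen gene Col1a1 had log2 folds of -1.20 and -0.88 (limma adjusted p = 0.187 and 0.281). With floored values taken as they stand, the 3 that rose in OEC Lp were Igfbp6 (log2 fold 4.46), Col3a1 (2.22) and Prrx1 (1.91). The 2 that fell there were Postn (-7.01) and Thy1 (-2.90). On RAE2.0, 10 of 20 were at least 2-fold higher and 6 at least 2-fold lower in OEC Lp than in OEC Ep, beside 10.4% of genes for each. Neuron markers, 12 on RAE2.0, summed to 40113, 2755 and 6822, and 7 on both types had 3 that fell in OEC Lp and 2 in TEG3. Astrocyte markers, 8 on RAE2.0, summed to 57373, 68012 and 8066, and 7 on U34A to 10350, 10272 and 2584. The higher RAE2.0 sum of OEC Lp does not stand for the list, whose median log2 ratio to OEC Ep was -1.64. By a factor of 2 or more, 4 of the 8 lay below OEC Ep and 1 above. Of 6 on both types, 1 rose and 2 fell in OEC Lp, and 1 fell in TEG3. Oligodendrocyte lineage markers, 7 on RAE2.0, summed to 19150, 1862 and 2432, with 3 of 6 that fell in OEC Lp and 2 in TEG3. Endothelial markers, 6 on RAE2.0, summed to 1291, 2350 and 1449, with 0 of 3 called against OEC Ep.

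As a sign of RNA quality, GAPDH probe sets had a 3′ to 5′ signal ratio that ran from 1.52 to 1.96 on U34A, highest in OEC Ep, and from 0.981 to 1.02 on RAE2.0. Its part in the members' values was not tested.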
